A study of Homo sapiens with 4 samples.

Results

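The 4 cystatins CSTA, CSTB, CST3 and CST6 are the members of this protease inhibitor family selected by name from a single-cell expression table of 19973 genes, and all 4 were found in it. Cystatins are small proteins that block lysosomal and secreted cysteine proteases, chiefly the cathepsins, by sitting in their active-site cleft. CSTA and CSTB (stefins A and B) lack a signal peptide and act inside the cell, whereas CST3 (cystatin C) and CST6 (cystatin E/M) are secreted, and both secreted members can also inhibit legumain, a protease that cuts after asparagine. In tumours, cysteine cathepsins outside the cell cut matrix and junction proteins, and cystatins are one of the checks on that activity.

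The cells were cultures of human lung adenocarcinoma lines. R2 and C2 were recovered from the brains of athymic mice carrying PC9-BrM4 metastases, treated with osimertinib, an inhibitor of mutant EGFR, for R2 and with vehicle for C2. Both went through repeated rounds of injection, treatment and recovery. The osimertinib mice were kept on treatment much longer than the vehicle mice, so drug and time in the mouse cannot be told apart. PC9-BrM4 came from brain metastases of parental PC9 after repeated selection in mice, and PC9 was the unselected parent. All 4 lines descend from PC9 and share its EGFR exon 19 deletion and a reporter of thymidine kinase, GFP and luciferase, and C2 and R2 additionally carried an eGFP vector. Every line was grown for 3 days without drug before 1 library was made of it from 3 pooled passages, so that no value below has a replicate library. The cells of all lines were clustered by the study into 19 sub-populations, numbered 0 to 18, and the deposited values are means over the cells of a sub-population. The study placed 1 and 5 mainly in R2, 0 and 4 in C2 and 8 in both C2 and R2 in its text, and the placement of 6 and 7 in PC9-BrM4 and 2 and 3 in PC9 was read from its plot of shares. The smaller sub-populations 9 to 18 were not placed in a line here. In levels and comparisons below, a line name stands for the columns placed in that line alone, averaged with equal weight and without 8. Every column can hold cells of all 4 lines, so these values are not levels of whole lines. All 4 cystatins stand on the list of genes of metastasis and resistance that the study chose on these same cells, so their direction between these lines is not independent evidence.

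The table held 24441 cells, of which 20660 (84.5%) were in sub-populations 0 to 8, and a mean of 12491 to 15635 UMIs per cell, where a UMI is 1 counted transcript molecule after the study's correction for depth. Raw depth in 0 to 8 was 0.983 to 1.03 times the typical value, but in 13, 14 and 16 it was 0.426, 0.494 and 0.498 times, and mitochondrial transcripts made up 70.9% of sub-population 16 against 6.72% to 23.3% elsewhere. The 7 epithelial markers found, KRT7, KRT8, KRT18, KRT19, EPCAM, CDH1 and NAPSA, gave a summed level of 16980 to 24914 counts per 1000000 UMIs (CPM) in 0 to 8. Of the lung lineage, NAPSA reached at most 2.65 CPM in any column, and NKX2-1 and SFTPB were not in the table. Of the 6 leukocyte markers only CD68 exceeded 10 CPM on average, while the summed fibroblast markers reached at most 7.29 CPM and the neural ones 2.98 CPM. Levels below are CPM of a sub-population, intervals are 95% Poisson intervals that cover counting error only, and since 3 prime libraries count 1 tag per transcript, levels of different genes can be compared without a length correction.

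CSTB was the most abundant cystatin, followed by CST6, CST3 and CSTA, and this order held in all 19 sub-populations. Across the 9 large ones, CSTB lay between 525 and 847 CPM, CST6 between 174 and 375 CPM, CST3 between 153 and 277 CPM and CSTA between 0.504 and 66.6 CPM. The highest level was thus 1.61 times the lowest for CSTB, 1.81 times for CST3, 2.16 times for CST6 and 132 times for CSTA. Among 7284 genes of at least 10 CPM, the log2 range of CSTA across 0 to 8 exceeded that of 99.8% of genes, that of CST6 80.5%, that of CST3 57.6% and that of CSTB 37.3%. CSTA was therefore the member that varied, on top of 3 inhibitors that every sub-population carried at over 100 CPM. The genes lie on separate chromosomes of GRCh38 in the GENCODE 44 annotation: CSTA at chr3:122325248-122341969 on the plus strand, CSTB at chr21:43772511-43776330 on the minus strand, CST3 at chr20:23626706-23638473 on the minus strand and CST6 at chr11:66012008-66013505 on the plus strand.

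CSTA, the stefin that keratinocytes also build into the cornified envelope, followed the lines. It stood at 66.6 CPM in sub-population 8 (62.8 to 70.5), at 36.3 CPM in 5 and 34.1 CPM in 1 of R2, and at 21.6 CPM in 4 and 15.8 CPM in 0 of C2. In PC9-BrM4 it was 1.77 CPM in 6 and 1.20 CPM in 7, and in PC9 0.755 CPM in 3 and 0.504 CPM in 2. No column of R2 overlapped one of C2, and no column of C2 overlapped one of PC9-BrM4. Neighbours in this order whose counting intervals overlapped were 5 and 1, 6 and 7, 7 and 3, and 3 and 2, so that within the low lines the sequence is not resolved by these counts.

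CSTB, the stefin whose loss causes a progressive myoclonus epilepsy in humans, was flatter. It stood at 847 CPM in 8, at 591 CPM in 5 and 650 CPM in 1 of R2, and at 590 CPM in 4 and 585 CPM in 0 of C2. PC9-BrM4 had 547 CPM in 6 and 525 CPM in 7, and PC9 had 526 CPM in 3 and 534 CPM in 2. Sub-populations 8 and 1 stood above the rest, the intervals of 5, 4 and 0 overlapped, and 6, 2, 3 and 7 followed below them, each with an interval that overlapped its neighbour in that order.

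CST3, the cystatin of body fluids including cerebrospinal fluid, was 277 CPM in 8, 236 CPM in 5 and 244 CPM in 1 of R2, and 204 CPM in 4 and 207 CPM in 0 of C2. The PC9-BrM4 columns held 153 CPM in 6 and 157 CPM in 7, below the PC9 columns with 161 CPM in 3 and 169 CPM in 2. CST3 was the only cystatin that was lower in both PC9-BrM4 columns than in both PC9 columns.

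CST6, a secreted inhibitor of cathepsins and legumain that is prominent in skin, was 375 CPM in 8, 313 CPM in 5 and 296 CPM in 1 of R2, and 257 CPM in 4 and 258 CPM in 0 of C2. It was 234 CPM in 6 and 247 CPM in 7 of PC9-BrM4, against 174 CPM in 3 and 195 CPM in 2 of PC9. For CST6 the lines thus fell into the order 8, R2, C2, PC9-BrM4 and PC9 with no overlap between the columns of neighbouring lines, which was also the order of CSTA, although the counting intervals of both 4 and 0 in C2 overlapped that of 7 in PC9-BrM4.

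**Figure D1:**
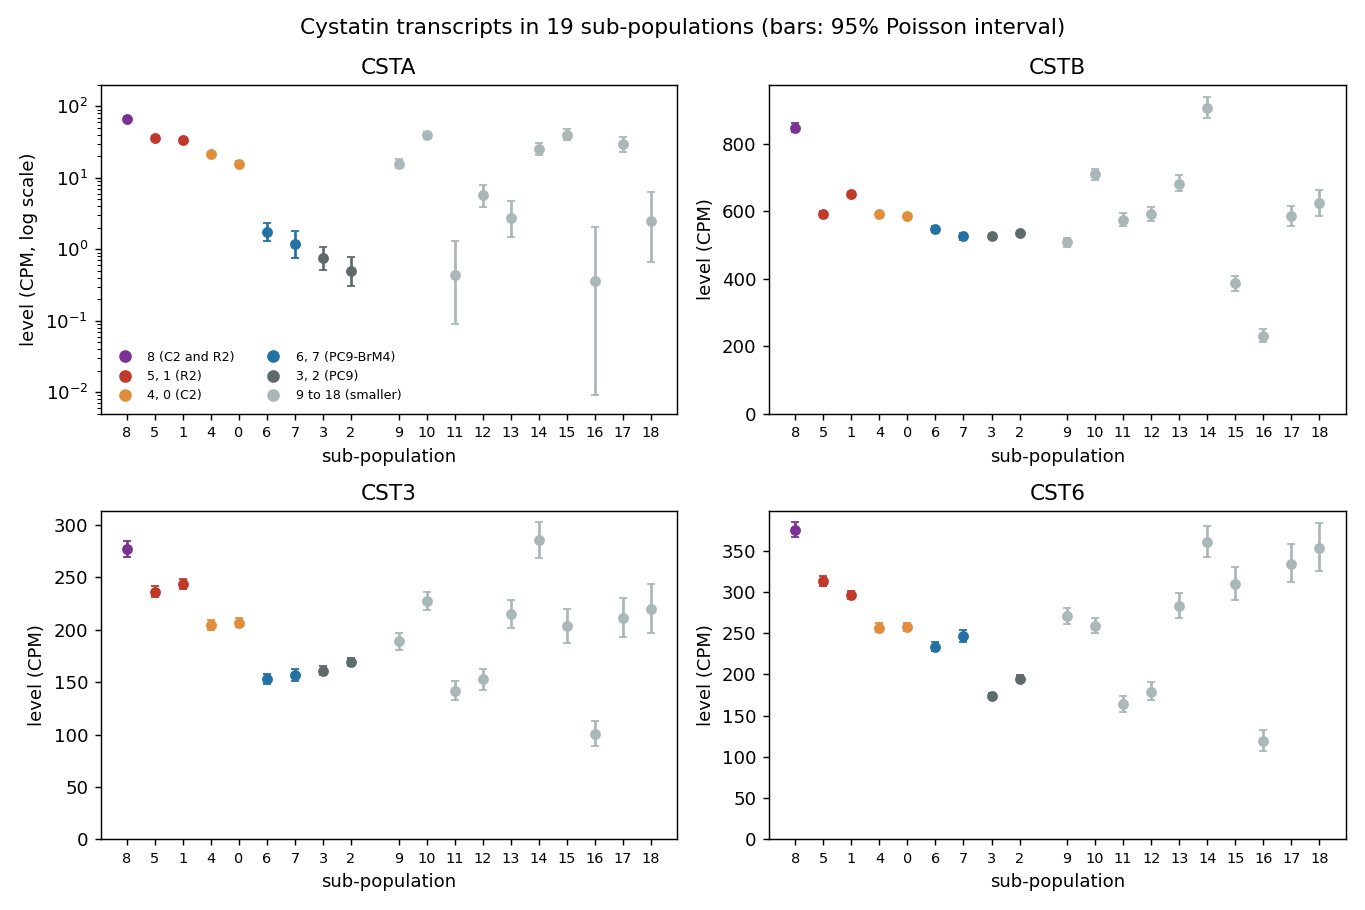
Level of each cystatin (CPM, vertical axis, logarithmic for CSTA and starting at 0 for the others) in the 19 sub-populations, with 95% Poisson intervals as bars and colours for the line in which the study placed a sub-population. CSTA spans 0.504 to 66.6 CPM across the large sub-populations on the left, whereas CSTB spans only 525 to 847 CPM.

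The 4 members moved together across the large sub-populations and less closely across all 19. Over 0 to 8, Pearson correlations between the levels of 2 cystatins were 0.83 to 0.98, and over all 19 they were 0.41 for CSTA with CSTB, 0.77 for CSTA with CST3 and 0.91 for CST3 with CST6. These are descriptions over 9 and 19 columns of means, which share libraries, depth correction and rescaling. Sub-population 16 carries much of some of them: without it CSTB with CST6 dropped to 0.40, against 0.66 with it.

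R2 against C2 set cells recovered from the brain under osimertinib beside cells recovered under vehicle, which had spent less time in the mouse. All 4 cystatins were higher in both R2 columns than in both C2 columns, CSTA most. The effect, the difference of the mean of log2(CPM + 5), was 0.77 ± 0.07 for CSTA (± 95% counting error), 0.24 ± 0.03 for CST6, 0.22 ± 0.03 for CST3 and 0.08 ± 0.02 for CSTB. As a plain ratio of means, CSTA was 1.88 times as high in R2 as in C2 (1.77 to 2.01). A call required an effect of 1 or more in either direction, an average of 10 CPM or more in the columns used, and no overlap between columns of the groups. By that rule 0 of the 4 cystatins were called, as were 0% of all 7133 genes tested in the upward direction, while the effect of CSTA was above that of 99.9% of genes. For CSTB the separation rests on sub-population 1, since 5 (591 CPM) and 4 (590 CPM) had overlapping counting intervals and the effect without 1 was 0.01. Higher without overlap at any size were 4 of 4 cystatins, against 23.2% of all genes. In this comparison short transcripts ran higher in general, with a Spearman correlation of effect with transcript length of -0.64 across 6916 genes, and the canonical transcripts of the 4 cystatins, at 588 to 793 bases, are far below the median of 3070 bases. With the median of genes of similar length subtracted, the effect of CSTA was 0.52, whereas those of CST6, CST3 and CSTB turned to -0.02, -0.04 and -0.18. In a second deposited table, of counts without the depth correction (the uncorrected table), the effects were 0.77 for CSTA, 0.11 for CST6, 0.55 for CST3 and 0.82 for CSTB. Its values average e to the power of the count, so single cells with the highest counts weigh most. Effects from it are therefore not those of mean raw counts.

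Against PC9-BrM4, the line from which both had been derived, CSTA was the cystatin with the largest effect in R2 and in C2. It averaged 35.2 CPM in the R2 columns, against 1.49 CPM in the PC9-BrM4 columns, an effect of 2.63 ± 0.09 and a ratio of 23.7 (18.6 to 30.1). C2 averaged 18.7 CPM against the same 1.49 CPM in PC9-BrM4, an effect of 1.86 ± 0.10 and a ratio of 12.6 (9.87 to 16.03). CSTA was called higher in both, as 1 of 4 cystatins, against 2.37% of all genes for R2 and 1.74% for C2. CD68, the leukocyte marker in the table above 10 CPM, was called higher in the same comparisons, with effects of 1.31 for R2 and 1.15 for C2, while PTPRC stayed at or under 0.252 CPM in every column, and its part was not tested. The PC9-BrM4 columns are shared by these comparisons, and the PC9-BrM4 level rests on 71 UMIs. The call for C2 was lost without 0 or without 4, because the mean of the remaining columns was then under 10 CPM, and the effect was 2.04 without 0 and 1.68 without 4.

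CST3 came next. It averaged 239.9 CPM in R2, against 155 CPM in PC9-BrM4, an effect of 0.62 ± 0.04 that exceeded 92.6% of genes, and 206 CPM in C2, an effect of 0.40 ± 0.04 that exceeded 88.5% of genes. The effect of CST6 was 0.34 ± 0.03 for R2 and 0.10 ± 0.03 for C2, and that of CSTB 0.21 ± 0.02 for R2 and 0.13 ± 0.02 for C2. With genes of similar length subtracted, the effects in R2 against PC9-BrM4 were 0.32 for CST3, 0.04 for CST6 and -0.09 for CSTB, beside 2.33 for CSTA, and in C2 against PC9-BrM4 0.35, 0.05 and 0.08, beside 1.81 for CSTA. In the uncorrected table CSTB had an effect of 0.77 for R2 and -0.05 for C2. All 4 cystatins were higher than PC9-BrM4 in every column of R2 and of C2, against 25.8% of all genes for R2 and 24.3% for C2.

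PC9-BrM4 against PC9 addressed repeated selection for brain metastasis without drug, and here CST6 had the largest effect of the 4, with a direction that depends on the table used. CST6 averaged 240.1 CPM in PC9-BrM4, against 184 CPM in PC9, an effect of 0.37 ± 0.04 that exceeded 98.3% of genes, and its columns did not overlap, against 9.62% of all genes higher without overlap. CST3 was 155 CPM in PC9-BrM4, against 165.1 CPM in PC9, an effect of -0.09 ± 0.04, close to the median of -0.11 over all genes, and 32.2% of all genes were lower without overlap as CST3 was. For CSTB the columns overlapped, with an effect of 0.02 ± 0.02. In the uncorrected table the effect of CST6 turned to -1.44 and was called lower, and 3, which held a single cell of 68 to 75 CST6 UMIs, was the highest column. CSTA, at 1.49 CPM in PC9-BrM4 and 0.630 CPM in PC9, was under the minimum of 10 CPM, and its ratio of 2.36 (1.64 to 3.40) rests on 71 and 51 UMIs. None of the 4 was called, against 0.0925% of all genes called higher.

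Sub-population 8, shared by C2 and R2, held the highest CSTA and CST6 of all 19 columns and the highest CSTB and CST3 of the 9 large ones, although the counting interval of CST6 in 8 overlapped those in 14 and 18. Set against 0, 1, 4 and 5, it averaged 66.6 CPM of CSTA, against 27.0 CPM, an effect of 1.22 ± 0.09 and a ratio of 2.47 (2.31 to 2.63). CSTB was 847 CPM in 8, against 604 CPM, an effect of 0.49 ± 0.02 that exceeded 96.6% of genes. CST6 and CST3 had effects of 0.42 ± 0.04 and 0.31 ± 0.04. CSTA was called, 1 of 4 against 0.629% of all genes, and all 4 stood above every C2 and R2 column, against 13.8% of all genes. The call of CSTA was lost with a pseudocount of 20, where the effect was 0.91, and with a minimum of 50 CPM. The uncorrected table gave 3.60 for CSTA, 2.10 for CST3, 1.60 for CSTB and 1.34 for CST6, all called. These values weigh the highest single cells most, so they are no separate support for a higher mean in 8. Sub-population 8 also held less of the cell division programme: 8 of 10 G2/M genes were called lower in it, against 0.615% of all genes, with a median effect of -1.48. Against the non-mitotic columns alone, CSTA was 66.6 CPM in 8, against 34.1 CPM in 1 and 15.8 CPM in 0.

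Between mitotic and non-mitotic sub-populations of a line the cystatins differed little in the corrected table. In each line the study's large sub-populations comprise 1 with more and 1 with less expression of most G2/M genes. These pairs are 5 and 1 in R2, 4 and 0 in C2, 6 and 7 in PC9-BrM4, and 3 and 2 in PC9. Of 10 G2/M genes, 7 had a mean effect above 0 and 4 were called higher. CCNB1 (-0.19), CCNB2 (-0.33) and CDC20 (-0.22) went the other way, so the name mitotic does not hold for every marker. CSTA was higher in the mitotic column of all 4 lines, with a mean effect of 0.16 ± 0.06, below the median of 0.18 over all genes, of which 70.5% were higher in all 4 lines, and the only within-line effect beyond its counting error was 0.36 ± 0.11 in C2. CST3 was lower in all 4 mitotic columns, with a mean effect of -0.04 ± 0.03, against 10.4% of all genes. CSTB and CST6 changed sign between lines, with means of -0.02 ± 0.01 and -0.04 ± 0.02, and none of the 4 was called, against 0.744% of all genes called higher. In the uncorrected table, which weighs the highest single cells most, the effects were 0.85 for CST6, 0.53 for CSTB, 0.42 for CSTA and -0.08 for CST3. CST6 there came to 2470 CPM in 3, against 514 CPM in 2.

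**Figure D2:**
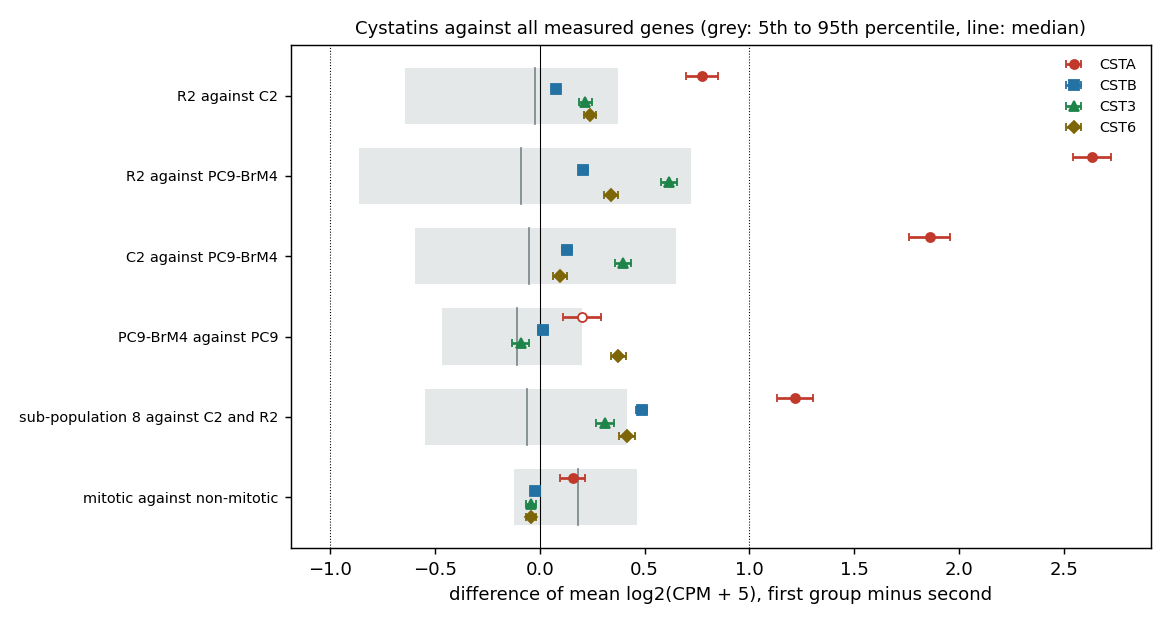
Effect of each cystatin (difference of mean log2(CPM + 5), horizontal axis, with 95% counting error as bars) in 6 comparisons, over grey bands for the 5th to 95th percentile of all measured genes and a grey line for their median. Dotted lines mark the size needed for a call, and the open symbol is CSTA under 10 CPM. CSTA lies beyond the band in R2 against C2 (0.77), R2 and C2 against PC9-BrM4 (2.63 and 1.86) and sub-population 8 (1.22). CSTB lies beyond it in sub-population 8 (0.49), and CST6 in PC9-BrM4 against PC9 (0.37), where CSTA (0.20) is at its edge.

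The table of uncorrected counts also showed in how many cells CSTA was found. Its values are means of e to the power of the count, minus 1, so that a low gene's value fixes how many cells held 1, 2, 3 and more UMIs. In all 18 sub-populations tried, exactly 1 set of whole cell numbers gave the deposited value to its last digits, and in 17 of 18 it was still the only one at 10 times the tolerance (the exception was 5). Sub-population 8, where the highest CSTA count of a cell lay between 13 and 20 UMIs, was not tried, so its number of positive cells is not given.

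At least 1 CSTA UMI was found in 834 of 2047 cells (40.7%) of sub-population 5 and 1061 of 2959 cells (35.9%) of 1 in R2. In C2 it was found in 678 of 2603 cells (26.0%) of 4 and 606 of 3373 cells (17.97%) of 0. The shares were 47 of 1844 cells (2.55%) in 6 and 20 of 1277 cells (1.57%) in 7 of PC9-BrM4, and 32 of 2664 cells (1.20%) in 3 and 19 of 2686 cells (0.707%) in 2 of PC9. Raw depth differed by only 0.983 to 1.03 between these columns. CSTA in R2 and C2 was thus spread over many cells at about 1 UMI each rather than carried by a few: positive cells held 1.44 UMIs on average in 5, and no cell of 5, 1, 4 or 0 held more than 8. All cells were of PC9 descent, so no cell type that should lack CSTA was there to set the background of free RNA. Whether the 0.707% to 2.55% of the PC9 and PC9-BrM4 columns exceed that background was not tested. These are shares of columns grouped by expression and not of lines. The study found the sub-populations that dominate C2 or R2 at lower frequency in PC9 and PC9-BrM4 too, so cells of these lines with CSTA may sit in other columns.

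**Figure D3:**
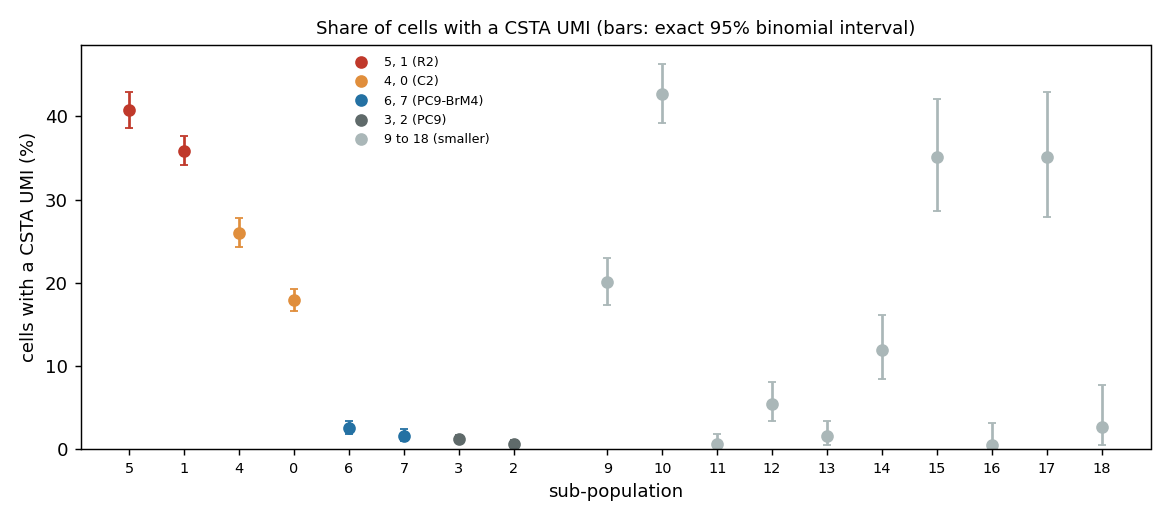
Share of cells with at least 1 uncorrected CSTA UMI (percent, vertical axis) in 18 sub-populations, with exact 95% binomial intervals as bars. The R2 columns 5 and 1 lie at 40.7% and 35.9%, the C2 columns 4 and 0 at 26.0% and 17.97%, and the PC9-BrM4 and PC9 columns at 0.707% to 2.55%.

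The spread of CSTA between cells was a little wider than chance draws from a common level would give. The variance of the count was 1.27 times its mean in 5 and 1, 1.22 times in 4 and 1.12 times in 0, where draws at a common rate give 1 time. Cells differ in depth, which is not given per cell in the tables, and its part in this excess was not tested. In sub-population 5, 59.3% of cells had no CSTA UMI, against 55.6% for draws at a common rate, and 32.0% of the positive cells held 2 or more.

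Among the smaller sub-populations, CSTA again varied most. Levels were 40.2 CPM in 10, 40.4 CPM in 15, 29.8 CPM in 17 and 25.6 CPM in 14, and 15.8 CPM in 9, close to sub-population 0. At the low end stood 5.73 CPM in 12, 2.75 CPM in 13, 2.46 CPM in 18, 0.443 CPM in 11 and 0.363 CPM in 16, the last 2 resting on 3 and 1 UMIs. Against the mean of 0 to 7, CSTA was higher by at least 2-fold on this scale in 10, 15, 17 and 14, with effects of 1.73, 1.74, 1.35 and 1.17, where 1.26%, 8.47%, 0.526% and 0.362% of all genes were. It was lower in 11 and 16, with effects of -1.32 and -1.35, where 1.1% and 75.5% of all genes were. Sub-populations 10, 15 and 17 also resembled R2 in the share of positive cells, with 42.7%, 35.1% and 35.2%, whereas 14, at 11.96%, had been read at 0.494 times the typical depth and its share cannot be set beside the others.

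In 12 and 13 a large part of the CSTA UMIs came from 1 or 2 cells. In sub-population 13, 1 cell held 9 of the 14 uncorrected UMIs, and in 12, 2 cells with 11 and 5 UMIs held 16 of 37. The other 21 and 5 UMIs were spread over 19 and 5 cells of 12 and 13.

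CSTB, CST3 and CST6 moved less in these columns, with sub-populations 14 and 16 at the extremes. Sub-population 14 had 907 CPM of CSTB, 285 CPM of CST3 and 361 CPM of CST6, effects of 0.67, 0.59 and 0.56 that exceeded 98.2%, 96.4% and 95.8% of genes, in a column read at low depth where 25.7% of all genes were called lower. Sub-population 15 had 386 CPM of CSTB, the lowest level other than 16, although its CSTA and CST6 (309 CPM) were above the mean of the large columns. Sub-population 11 had 142 CPM of CST3 and 164 CPM of CST6, both below every large column, and its CSTB, at 575 CPM, was within their range.

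In sub-population 16, where mitochondrial transcripts took 70.9% of the total, all 4 were at their lowest on the scale of all transcripts: 231 CPM of CSTB, 119 CPM of CST6, 101 CPM of CST3 and 0.363 CPM of CSTA. Its effects of -1.28 for CSTB, -0.996 for CST6 and -0.87 for CST3 lie above the median of -1.38 over all genes, and that of CSTA, at -1.35, was close to it. With mitochondrial transcripts left out of the total, sub-population 16 had 793 CPM of CSTB, 409.6 CPM of CST6, 346 CPM of CST3 and 1.249 CPM of CSTA, CST3 was second only to 8 (347 CPM), and the call of CSTB in 16 was lost.

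The same table set bounds on the highest count that any single cell held, and these showed cells with far more CSTB than the mean. The highest CSTB count lay between 121 and 128 UMIs in sub-population 8, between 120 and 125 in 12 and between 105 and 111 in 10, where mean corrected counts were 12.3, 9.02 and 10.7 UMIs per cell. In sub-population 5 it lay between 74 and 81, in 0 between 25 and 33 and in 7 between 21 and 27. Sub-population 14, with the highest mean after 8 at 11.51 UMIs per cell, had no cell above 21. These are raw counts beside depth-corrected means, and 14 was read at 0.494 times the typical depth in 301 cells, against 1207 cells in 8 and 770 in 10, so the maxima cannot be set beside each other.

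For CST6 the most extreme cell was in sub-population 3 of PC9, with 68 to 75 UMIs, although its mean of 2.68 UMIs per cell was among the lowest, and no cell of any other sub-population held more than 42. For CST3 the highest count was 33 to 40 in 8 and at most 24 elsewhere. CSTA reached between 13 and 20 UMIs in a cell of 8, while the highest decoded counts were 11 in 12 and 9 in 10 and 13. Whether these single cells were doublets was not tested, since the tables give no values per cell.

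**Figure D4:**
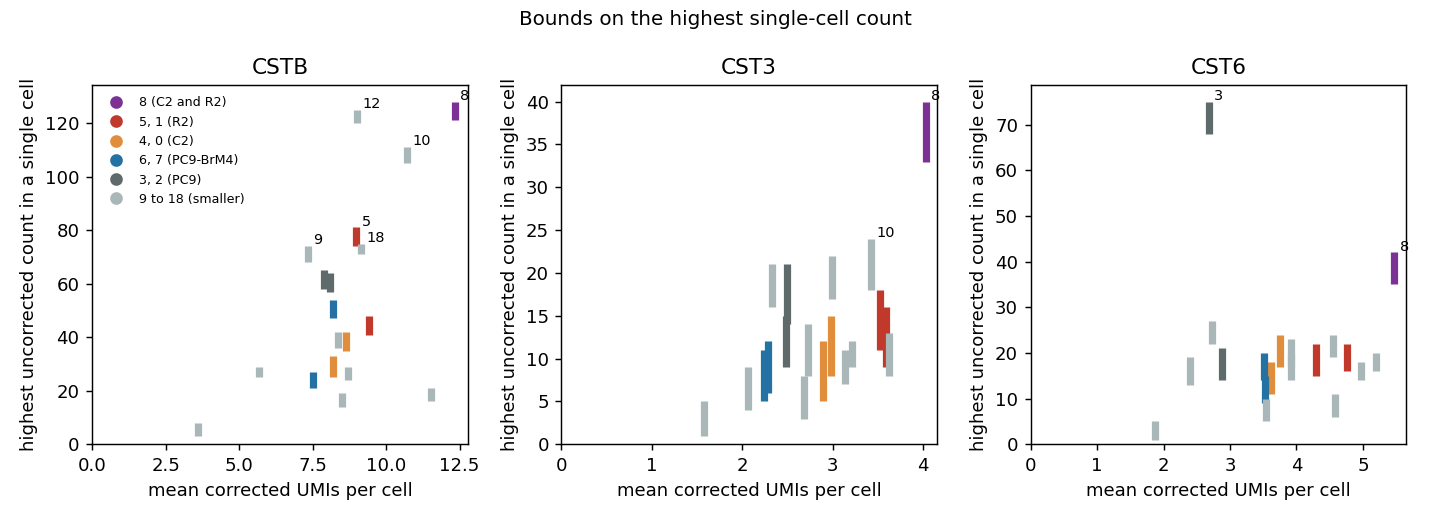
Lower to upper bound (vertical bars) on the highest uncorrected count held by any single cell of a sub-population, against the mean corrected UMIs per cell, for CSTB, CST3 and CST6 on linear axes starting at 0, with colours for the placement and numbers for the highest sub-populations. CSTB in 8, 12 and 10 reaches above 100 UMIs in a cell, and CST6 in sub-population 3 reaches 68 to 75 at a mean of 2.68.

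Of 12 cysteine cathepsins and legumain, proteases of the kind that cystatins inhibit, 11 were in the table and 7 averaged at least 10 CPM. In R2 against PC9-BrM4 1 of 7 measured was called higher, CTSH (cathepsin H, an aminopeptidase), with an effect of 1.13, against 2.37% of all genes. In C2 against PC9-BrM4 its effect was 0.99, just under the size for a call. None was called in R2 against C2, C2 against PC9-BrM4, PC9-BrM4 against PC9, sub-population 8 or the mitotic comparison. In these, 0%, 1.74%, 0.0925%, 0.629% and 0.744% of all genes were called higher, and so few proteases cannot show a difference from such shares. CTSH ran at 61.6 and 57.1 CPM in 5 and 1 of R2 and at 56.0 and 50.4 CPM in 4 and 0 of C2, against 25.7 and 23.05 CPM in 6 and 7 of PC9-BrM4. CTSC (cathepsin C, which activates serine proteases) was the most abundant in each of the 9 large columns, and its largest effect in the comparisons was -0.35 in PC9-BrM4 against PC9. CTSS (cathepsin S), which stayed under the minimum, reached 6.54 CPM in 8, against 0.958 CPM or less in 2, 3, 6 and 7.

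The summed level of the 4 cystatins was 1566 CPM in 8, 1177 and 1224 CPM in 5 and 1 of R2, 1073 and 1065 CPM in 4 and 0 of C2, 935 and 930.0 CPM in 6 and 7 of PC9-BrM4, and 861 and 898 CPM in 3 and 2 of PC9. The 11 proteases summed to between 405 and 509 CPM in these columns. Transcripts of inhibitors per transcript of protease were thus 3.12 in 8, 2.37 and 2.40 in 5 and 1, 2.23 and 2.17 in 4 and 0, 2.13 and 2.29 in 6 and 7, and 1.74 and 1.85 in 3 and 2. PC9 had the lowest ratios of the lines and no line overlapped it, while C2 and PC9-BrM4 overlapped. CSTB contributed 54.1% of the cystatin transcripts in 8 and CSTA 4.25%, so these sums follow CSTB and the secreted members. With genes of similar length subtracted, the effects of CSTB, CST6 and CST3 in R2 against C2 were -0.18, -0.02 and -0.04. No such subtraction was made for the sums or ratios, so their difference between R2 and C2 carries that limit. Among the smaller columns, 12 and 10 had ratios of 3.39 and 3.37, with protease sums of 274 and 367 CPM.

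**Figure D5:**
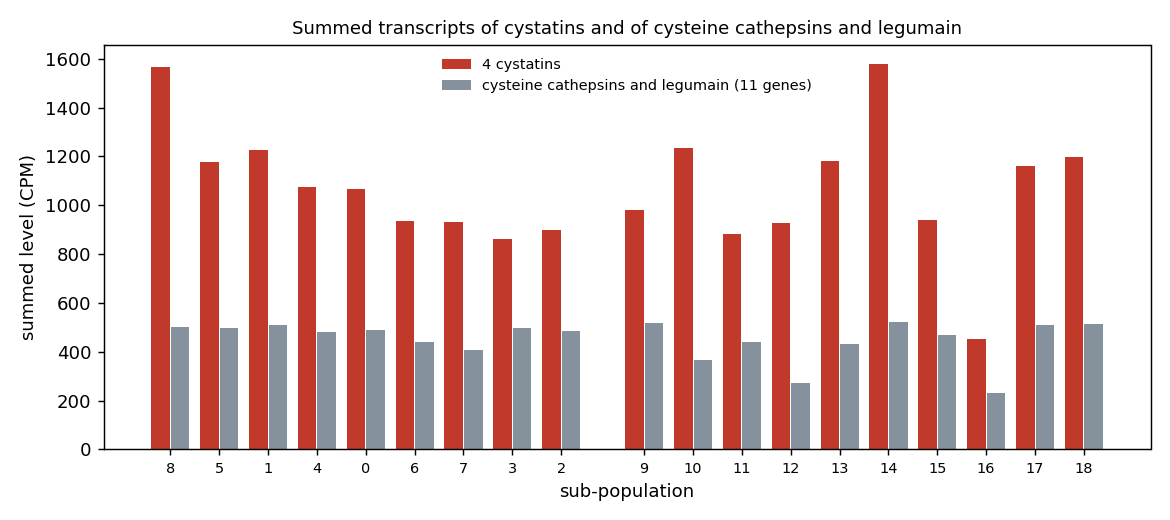
Summed level (CPM, vertical axis from 0) of the 4 cystatins and of 11 genes of cysteine cathepsins and legumain in each of the 19 sub-populations. Cystatins run at 861 to 1566 CPM across the large sub-populations on the left while the proteases stay between 405 and 509 CPM.

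No other cystatin gene was abundant at this depth. Of 16 further cystatins and related inhibitors only 3 were in the table, AHSG, HRG and RARRES1, and none averaged 10 CPM, RARRES1 reaching 20.9 CPM in 18. Of 16 cornified envelope genes, among which CSTA belongs by function in skin, 4 averaged at least 10 CPM (EVPL, PPL, CNFN and SCEL). None was called in the 6 comparisons, but only 2 to 4 were measured in each, where 0% to 2.37% of all genes were called higher. So few genes cannot show whether the group follows CSTA. In sub-population 8 all 4 measured had effects above 0 (median 0.35, against -0.06 over all genes), and in R2 against C2 1 of 3 had. SPRR1B, a small proline-rich envelope precursor under the minimum of 10 CPM, was 18.99 CPM in 8, against 1.07 to 1.89 CPM in 5, 1 and 4 and 0.803 CPM in 0. The 6 keratinocyte or squamous markers summed to at most 24.4 CPM in any column.

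Inhibitors of other proteases were called in the same comparisons. Of 15 measured members of a list of 20 secreted and cytosolic inhibitors, 4 were called higher in R2 against PC9-BrM4 (2.37% of all genes), 5 in C2 against PC9-BrM4 (1.74%) and 3 in sub-population 8 (0.629%), with 0 called in R2 against C2 (0%). PI3 (elafin, an elastase inhibitor) had effects of 2.51, 2.82 and 3.02 in those 3 comparisons and SLPI (secretory leukocyte protease inhibitor) 1.53, 1.42 and 1.14. In R2 against C2 PI3 had an effect of -0.32 and SLPI one of 0.10, beside 0.77 for CSTA. In PC9-BrM4 against PC9, where CST6 was higher, TFPI2 (an inhibitor of plasmin and other serine proteases) was called higher with an effect of 1.10, against 0.0925% of all genes, and PI3 lower with -1.07, where 0.383% of all genes were called lower.

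The genes most like each cystatin over the 19 columns, by Pearson correlation of log2 levels among 7070 genes, were KRT23 (a keratin, 0.97), DEFB1 (a beta-defensin, 0.96), MAOA (a monoamine oxidase, 0.96), MT1A (a metallothionein, 0.95) and AXL (a receptor tyrosine kinase, 0.93) for CSTA. KRT23 was 52.8 CPM in 8, averaged 31.8 CPM over 0, 1, 4 and 5 and 0.868 CPM over 2, 3, 6 and 7. For CST6 the most similar gene of all was CST3, at 0.91. CST3 was closest to TMSB4X (an actin-binding peptide, 0.95), VAMP8, PRSS21, GRN and SH3GLB1, and CSTB to PCBD1 (0.94), C4orf3, SEC61B, VAT1 and LTBP3. These neighbours depend on the columns: over 0 to 8 alone, 0 of 5 were the same for CSTA, CSTB and CST6 and 1 of 5 for CST3.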

How the data were processed

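The 4 lines gave 1 single-cell library each, made by the authors with 10x 3 prime chemistry, aligned to hg38 with Cell Ranger and normalised in Seurat 3 with sctransform, regressing on the mitochondrial percentage. In the corrected table the deposited values are mean corrected UMI counts per cell, and multiplied by a whole number of cells they gave whole numbers within 0.001, which recovered the number of cells. In the other table the values deposited by the authors are the mean of e to the power of the count, minus 1, and 140 values of 20 genes had overflowed, none of them of a cystatin. For comparisons these were converted to a mean count as if counts were Poisson, then scaled for depth. Where counts spread more widely than Poisson, the highest single cells set most of the converted value.

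Corrected columns were each set to a sum of 1000000 and compared as the difference of mean log2(CPM + 5), after a minimum mean of 10 CPM. In the mitotic comparison a call needed the same sign in all 4 lines, and for sub-populations 9 to 18 size alone. Lines have 1 library each and sub-populations are no replicates, so no test was applied and no p is given. Counting error is the Poisson error of summed UMIs. Numbers of cells with each CSTA count were found by searching all whole-number combinations within 1.25-fold of the total in the corrected table, raised or lowered by relative depth. Alternatives were the uncorrected table, pseudocounts of 1 and 20, no minimum or 50 CPM, no rescaling, a size of 0.5, subtraction of the median of all genes or of 20 length bins, and leaving out single sub-populations, and, chosen after the data were seen, leaving mitochondrial transcripts out of the total. Members, lists and placements were chosen with earlier results of these data known. The named genes were the 4 cystatins, list members of at least 10 CPM on average, lower ones named as low, and the 5 genes most like each cystatin without ribosomal, mitochondrial and clone-named genes. CTSS and SPRR1B were picked after their values were seen. Steps were checked on simulated data. For the search of CSTA cell numbers these had lower means per cell than 5, 1, 10 and 15, and the true total was given. Python 3.11.15, numpy 2.4.6, pandas 2.3.3 and scipy 1.17.1 were used. Doublets were not assessed.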

Additional observations from a re-analysis of the deposited data

How the results depend on the processing

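No paired analysis was possible because each line has 1 library and no replicate numbers link the lines, and pairing by line is already part of the mitotic comparison. The number of cystatins called in R2 against C2 was 0, and 1 (CSTA) at a size threshold of 0.5. In R2 against PC9-BrM4 it was 1, 0 with a minimum of 50 CPM and 2 (CSTA and CST3) at 0.5. In C2 against PC9-BrM4 it was 1, and 0 with a pseudocount of 20, a minimum of 50 CPM, no rescaling, without sub-population 0 or without 4. In sub-population 8 against C2 and R2 it was 1, 0 with a pseudocount of 20 or a minimum of 50 CPM, and 4 in the uncorrected table. In PC9-BrM4 against PC9 it was 0, and 1 in the uncorrected table, where CST6 was lower with an effect of -1.44. In the mitotic comparison it stayed 0 under every alternative. Of the smaller sub-populations, 7 differences were called, 16 in the uncorrected table, 18 at a size of 0.5 and 1 with a pseudocount of 20 or a minimum of 50 CPM. Of the 20 most similar genes, 1 was shared when the columns 0 to 8 were used alone, 0 in the uncorrected table, 11 without sub-population 16 and 12 without mitochondrial transcripts. Of 264 effects of single cystatins under the alternatives that can change an effect, 246 kept their sign and no effect called in the corrected table turned. The uncorrected table moved 22 of 24 effects beyond counting error. Its converted values weigh the highest single cells most. CSTA in sub-population 13 came to 341 CPM in this way, against 2.75 CPM in the corrected table. It also lacks the depth correction, and the part of each step was not tested. Cells with CSTA in the PC9 and PC9-BrM4 columns number 19 to 47, which limits how finely these columns can be ordered.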
